A study of Mus musculus with 7 samples.

Results

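The genes described here are 39 members of the pathways that repair damaged DNA bases, mismatched bases, bulky lesions and broken ends, chosen by name from a fixed list of base excision, single-strand break, mismatch, nucleotide excision, end-joining and direct reversal factors. They were read in megakaryocyte-erythroid progenitors, the bone marrow cells that give rise to platelets and red blood cells, of Ssb1/Ssb2 double knockout mice and of wild-type mice. Of the 39 genes, 37 had at least 1 probe on the array under the current or an older symbol, with 61 of 25697 probes in all. Detection was sufficient for a test in 32 genes, out of 7547 genes tested in the whole data set.

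Arrays came from 3 double knockout samples and 4 wild-type control samples of female C57BL/6 mice. The cells had been sorted as lineage-low, c-Kit positive, Sca-1 negative and low for CD34 and CD16/32. The sources used here do not give the mice's age, the way the genes were deleted or whether each array was a separate animal, so p-values measure the spread between these samples only. Ssb1 (Nabp2) and Ssb2 (Nabp1) encode single-stranded DNA binding proteins that take part in DNA break repair.

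Cells mend DNA by several routes that start from different lesions. In base excision repair a glycosylase removes a damaged base, Apex1 cuts the bare sugar, Polb fills the gap and Lig3 with its scaffold Xrcc1 seals it, while the PARP enzymes sense nicks. Mismatch repair removes copying errors after replication, and nucleotide excision repair cuts out bulky lesions such as those made by ultraviolet light. Non-homologous end joining holds, trims and ligates broken DNA ends, and in developing lymphocytes it also completes the rearrangement of antigen receptor genes.

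Probe signals were background-corrected, quantile-normalized and put on a log2 scale, and the group comparison was made in limma across all 7547 genes with Benjamini-Hochberg adjustment, with an adjusted p of 0.05 as the threshold. A probe was called detected on an array where its detection p was under 0.05, and a gene was tested where a probe was detected on at least 3 of the 7 arrays. Each gene is represented by its brightest such probe. Levels of different probes are not comparable with each other, so values are compared between groups for the same probe only. In sorted cells as in other bulk samples, fewer cells of a type and less RNA per cell cannot be told apart.

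The repair genes passed the test about as often as all genes did. Of the 32 tested, 9 passed the threshold, 4 higher (Ddb2, Smug1, Lig3 and Ercc5) and 5 lower (Nhej1, Polb, Msh3, Nthl1 and Ercc1) in the double knockout, which is 28.1% against 27.2% of all genes tested. The share higher over all genes was 14.4% and the share lower 12.8%. Msh3 entered the test through its detection in controls. Among genes detected on all arrays at a detection p under 0.01, which leaves Msh3 out, 8 of 26 repair genes passed (30.8%), against 34.8% of all genes. The median log2 change of the 32 genes was -0.05, against 0.01 over all genes, and the median size of change regardless of direction was 0.27 against 0.29. Changes reached 2-fold in 1 repair gene, Nhej1, and in 301 of the 7547 genes. The values of the groups did not overlap for 13 of the 32 genes, or 40.6%, against 38.5% of all genes. By role, changes passed in 2 of 7 tested glycosylases, 2 of 7 core factors of base excision and single-strand break repair, 1 of 4 mismatch repair genes, 3 of 8 nucleotide excision genes, 1 of 5 end-joining genes and 0 of 1 direct reversal gene, for which limma gave an unadjusted p of 0.726.

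**Figure D1:**
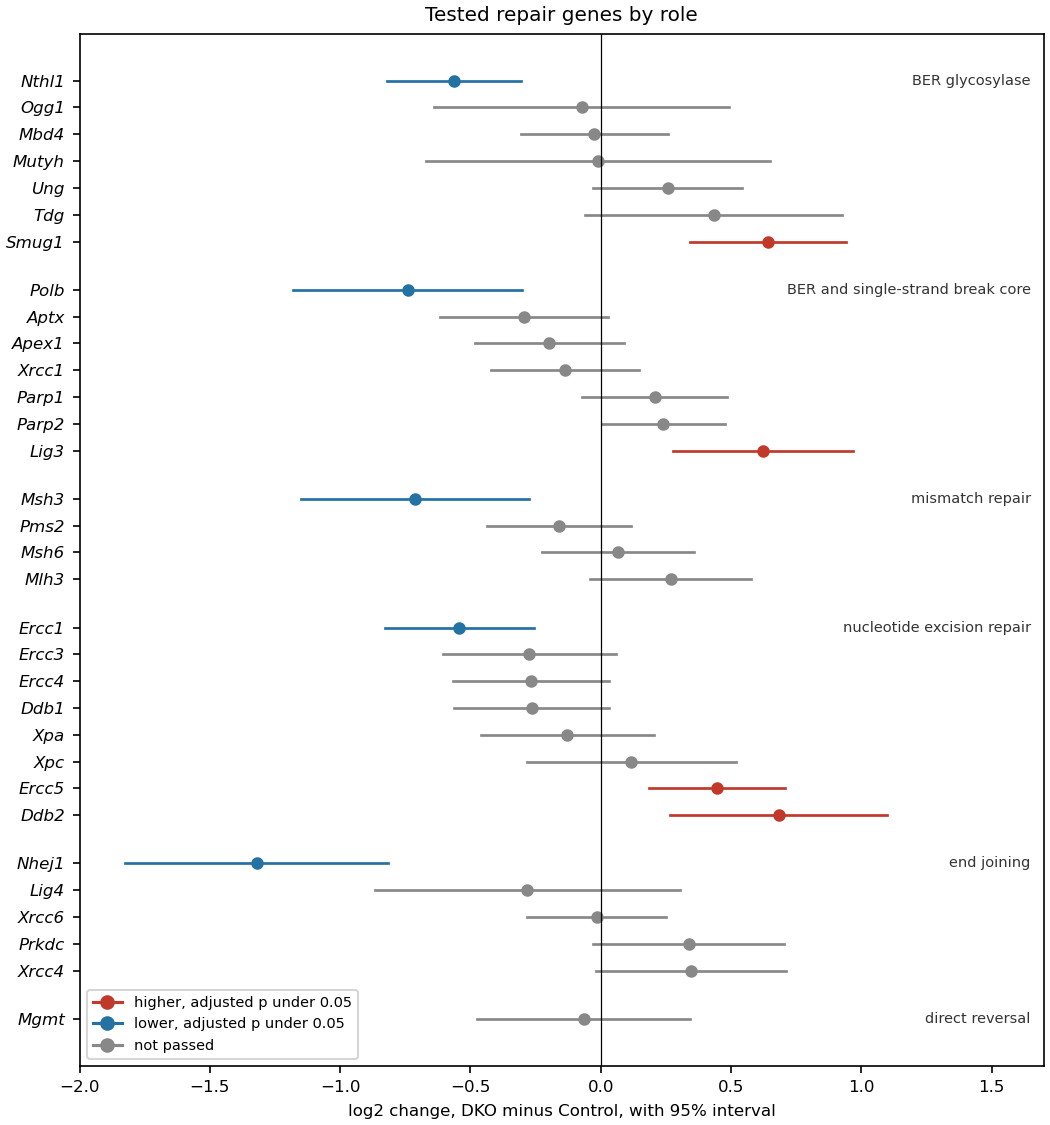
log2 change (double knockout minus control, horizontal axis) of each of the 32 tested repair genes, grouped by role, with bars for the 95% interval of the limma fit (3 double knockout and 4 control arrays). BER is base excision repair. The 4 genes in red and the 5 in blue passed the threshold, and every role with more than 1 passing gene holds both directions.

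The arrays of the groups differed in ways that stand beside all these values. Mean signal before normalization was 651 to 670 on the double knockout arrays and 443 to 615 on the control arrays, and the share of probes detected was 41.2% to 43.4% in the double knockout and 36.6% to 40.3% in controls. The targeted gene Nabp2 read 7.13, 7.09 and 7.05 in the double knockout and 9.35, 9.17, 8.60 and 9.38 in controls, 4.11-fold lower (adjusted p = 0.000203), and no array showed the Nabp1 probe above background, so that it checks nothing. Markers of the erythroid and megakaryocyte lineage were tested for 10 of 12 genes, with 2 higher and 0 lower and a summed linear signal of 36700 to 38400 in the double knockout and 32300 to 38700 in controls. All 6 tested B-lineage markers of 10 listed were lower, with a sum of 215 to 330 in the double knockout and 958 to 2120 in controls, and Pax5 and Blnk were not above background on any array. The double knockout means of Vpreb3, Cd79a and Ebf1 were 4.78, 4.74 and 4.78. The lowest values among detected probes on those arrays were 4.96 to 5.07. Probes this dim can enter the test through their detection in controls, so their direction is in part set by that filter. Of 8 markers of maturing red cells, 5 were tested and 3 were lower, with sums of 2960 to 5260 and 7010 to 11900 in double knockout and control arrays. Of 12 granulocyte and monocyte markers, 8 were tested, 3 were higher and 1 lower, with a sum of 1780 to 3550 in the double knockout and 921 to 1920 in controls. Of 8 T and NK cell markers, 2 were tested. Il7r was lower (log2 -0.87, adjusted p = 0.00932) and Nkg7 did not pass (log2 0.65, adjusted p = 0.233). The double knockout mean of Il7r, 4.80, also lay below the lowest detected values of those arrays. Cd3e and Cd3g were not above background on any array. Of 7 mast cell and basophil markers, 2 were tested. Their sum was 120 to 161 in the double knockout and 73.1 to 155 in controls. Cpa3 was higher (log2 0.94, adjusted p = 0.0400), and Fcer1a did not pass (log2 -0.18, adjusted p = 0.578). Of 4 markers of cells outside the sort gate, 2 were tested. Their sum was 66.5 to 70.6 in the double knockout and 56.8 to 73.9 in controls. Fcgr2b, which encodes a CD32 receptor, was higher (log2 0.52, adjusted p = 0.0305). Its control mean of 4.66 lay below the lowest values among detected probes on those arrays, 5.12 to 5.42. The size of its change is therefore not well measured. Cd34, also near background, did not pass (log2 -0.37, adjusted p = 0.134), and Fcgr3 was not above background on any array. The part of these cell types in the changes of the repair genes was not tested. Every double knockout array was brighter than every control array, so a model that includes brightness cannot tell it well apart from genotype. When the brightness of each array entered the limma model, 0 of the 32 repair genes passed (3 at an unadjusted p under 0.05), against 52 of the 7547 genes (0.689%). The 9 adjusted p-values lay between 0.247 and 0.495, and all 9 genes kept their direction, with changes such as 0.90 for Ddb2, 0.40 for Lig3, -0.79 for Polb and -0.98 for Nhej1.

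**Figure D2:**
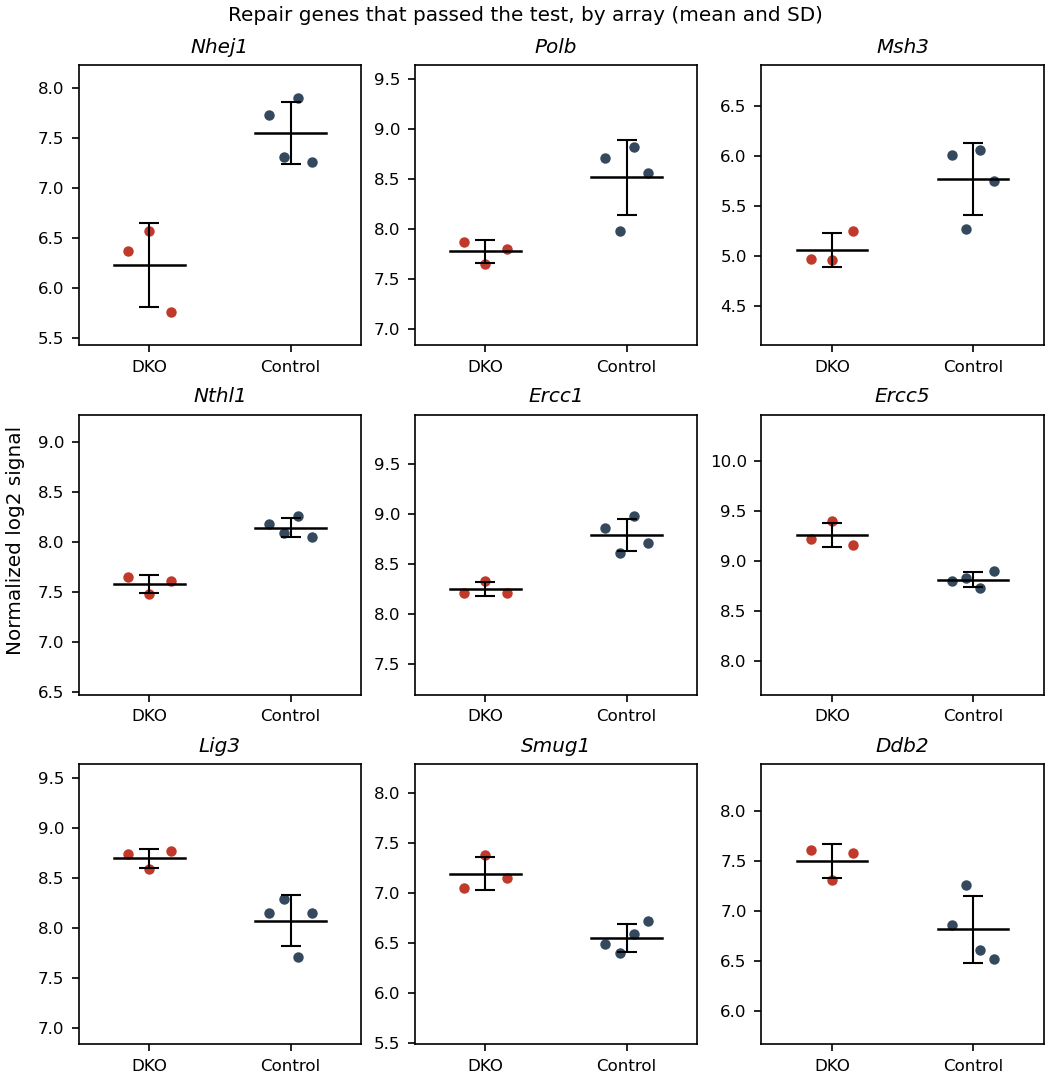
Normalized log2 signal (vertical axis, of equal height in every panel) of the 9 repair genes that passed the threshold, with a point per array for 3 double knockout (DKO) and 4 control arrays, the mean as a line and the SD as a bar. In each panel the points of the groups do not overlap, and Nhej1 has the widest gap.

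Among the glycosylases, which each recognise their own kind of damaged base, Smug1 rose and Nthl1 fell. Smug1, which removes uracil and some oxidised uracil bases, read 7.05, 7.37 and 7.15 in the double knockout and 6.49, 6.40, 6.59 and 6.72 in controls. Each double knockout array lay above every control array, and the difference was 1.56-fold (log2 0.64, SE 0.133, adjusted p = 0.00885). Nthl1, which removes oxidised pyrimidines, read 7.65, 7.49 and 7.61 in the double knockout and 8.18, 8.09, 8.26 and 8.06 in controls. Its groups were separate and tight, with means of 7.58 ± 0.0863 (SD, n = 3) and 8.15 ± 0.0938 (SD, n = 4) in double knockout and control arrays, 1.48-fold lower (log2 -0.56, SE 0.115, adjusted p = 0.00828). Both calls held whichever array was left out. With each array scaled to the same median over all probes, the change of Nthl1 was 0.12 (adjusted p = 0.705), below the median of all genes, which that scaling moved to 0.52. Without background correction and in the authors' processed table the changes were smaller and passed, at 0.31 and 0.30 for Smug1 (adjusted p = 0.0124 and 0.0141) and -0.36 and -0.34 for Nthl1 (adjusted p = 0.00430 and 0.00608).

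The other tested glycosylases did not pass. Tdg, which acts on thymine and uracil opposite guanine and in the removal of methylated cytosine, differed by 0.43 (adjusted p = 0.171), with 6.09, 6.41 and 6.55 in the double knockout and 5.70, 6.31, 5.45 and 6.21 in controls, so that the groups overlapped. Mbd4, which acts on the same mismatches at methylated sites, differed by -0.02, with a 95% interval of -0.31 to 0.26 that was the narrowest of this group among the genes not called. Ogg1, which removes oxidised guanine, and Mutyh, which removes adenine placed opposite it, differed by -0.07 and -0.01. These were dim probes: Ogg1 was detected on 3 of 3 double knockout and 2 of 4 control arrays, Mutyh on 3 of 3 and 3 of 4, and their control SDs of 0.507 and 0.627 were among the largest of the list. Neil1 and Neil3, which act on oxidised bases, were not above background on any array.

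Ung, the main uracil glycosylase, gave different answers from different probes of the same transcript record. The brighter probe read 10.10, 10.38 and 10.12 in the double knockout and 9.82, 10.09, 9.88 and 9.99 in controls, a log2 difference of 0.26 (SE 0.127, 95% interval -0.03 to 0.54, adjusted p = 0.161) with every double knockout array above every control array. A dimmer probe read 5.43, 5.47 and 5.41 in the double knockout and 6.01, 6.05, 6.24 and 5.73 in controls, every double knockout array lying below every control array. Its double knockout values lay close to the lowest values among detected probes on those arrays, 4.99, 5.07 and 4.96. The size of its change is therefore not well measured. That probe passed in the lower direction in a fit over all 10091 detected probes (log2 -0.57, SE 0.141, adjusted p = 0.0185), where 26.0% of probes passed. Its call was lost without double knockout array 1 or 3 (adjusted p = 0.0613 and 0.0668), and its change was -0.17 without background correction (adjusted p = 0.103). The remaining Ung probes were detected on 3 arrays, with a log2 difference of 0.12, and on no array. The positions of these probes in the transcript were not analysed here.

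**Figure D3:**
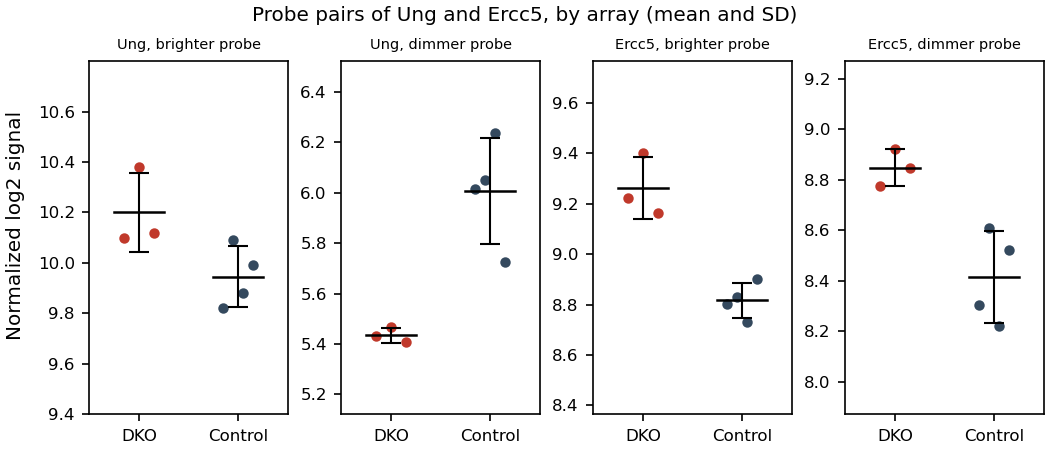
Normalized log2 signal (vertical axis, of equal height in every panel) of a brighter and a dimmer probe of Ung and of Ercc5 by array, with the mean as a line and the SD as a bar, for 3 double knockout (DKO) and 4 control arrays. The Ung probes separate the groups in opposite directions, at 0.26 and -0.57 on the log2 scale, while the Ercc5 probes separate them in the same direction, at 0.45 and 0.43. The dimmer Ung probe lies near background.

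In the later steps of base excision and single-strand break repair, the ligase Lig3 rose and the polymerase Polb fell. Lig3 read 8.74, 8.59 and 8.77 in the double knockout and 8.15, 8.30, 7.71 and 8.15 in controls. Its groups did not overlap, control array 3 was the lowest, and the difference was 1.54-fold (log2 0.62, SE 0.153, adjusted p = 0.0170). Polb, which fills the gap left by the removed base, read 7.87, 7.65 and 7.81 in the double knockout and 8.71, 7.98, 8.82 and 8.56 in controls. Control array 2 lay close to the double knockout arrays, and the fall was 1.67-fold (log2 -0.74, SE 0.196, adjusted p = 0.0223). Lig3 missed the threshold without double knockout array 1 or 3 (adjusted p = 0.0603 and 0.0679), and Polb without any of the 3 double knockout arrays (adjusted p = 0.0549, 0.0714 and 0.0665). Polb differed by -0.09 with median scaling over all probes (adjusted p = 0.780), where the median of all genes was 0.52, and by -0.49 in the authors' processed table (adjusted p = 0.0104).

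Parp2, a nick sensor that makes poly(ADP-ribose) chains, was the steadiest of these probes and came closest to the threshold among the core factors not called. It read 11.45, 11.48 and 11.54 in the double knockout and 11.25, 11.26, 11.21 and 11.28 in controls. The groups did not overlap, and the control SD of 0.0284 was the lowest of the 32 genes, but the log2 difference of 0.24 (95% interval 0.00 to 0.48) had an unadjusted p = 0.0467 and an adjusted p = 0.117. It passed when background was left in (log2 0.23, adjusted p = 0.0307) and in the authors' processed table (log2 0.24, adjusted p = 0.0302), while its other probe differed by 0.15 with groups that overlapped (adjusted p over probes = 0.442). Parp1, the main sensor, differed by 0.21 (adjusted p = 0.238), with all double knockout arrays at 11.02 to 11.07 and all controls at 10.63 to 11.02, where control array 4 met the lowest double knockout array after rounding. Its other well-detected probe differed by 0.30 (adjusted p over probes = 0.132). The scaffold Xrcc1 differed by -0.14, the endonuclease Apex1 by -0.20 and Aptx, which clears failed ligation ends, by -0.30 (adjusted p = 0.447, 0.272 and 0.153). Parg, which breaks down poly(ADP-ribose), was detected on 2 double knockout arrays and no control array, too few for the test.

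Of the mismatch repair genes, only Msh3 passed, and its probe was below detection on most double knockout arrays, so that the size of its change is not well measured. These proteins compete for the same partner, Msh3 for longer loops and Msh6 for single mismatched bases. Msh3 read 4.97, 4.95 and 5.25 in the double knockout and 6.00, 5.27, 6.06 and 5.74 in controls. The lowest control, array 2, lay just above the highest double knockout array, and the change was -0.71 (SE 0.195, adjusted p = 0.0255), or -0.66 once undetected values were set to the detection floor of their array. The probe was detected on 1 of 3 double knockout arrays and 4 of 4 control arrays, the values of double knockout arrays 1 and 2 lay below the detection floors of 4.99 and 5.07 of those arrays, and its change was -0.20 without background correction (adjusted p = 0.0923). The call was also lost without double knockout array 1 or 2 or control array 1 or 3 (adjusted p = 0.0851, 0.0780, 0.0543 and 0.0555), and another Msh3 probe was detected on 2 arrays only. Msh6 differed by 0.07 (95% interval -0.23 to 0.36), with 11.96 to 12.21 in the double knockout and 11.83 to 12.21 in controls. The endonuclease subunits Mlh3 and Pms2 differed by 0.27 and -0.16 (adjusted p = 0.174 and 0.357), with 95% intervals of -0.04 to 0.58 for Mlh3 and -0.44 to 0.12 for Pms2.

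In nucleotide excision repair the lesion sensor Ddb2 and the endonuclease Ercc5 rose, and the endonuclease subunit Ercc1 fell. Ddb2, which recognises ultraviolet damage and is a p53 target in human cells, read 7.61, 7.31 and 7.58 in the double knockout and 6.86, 7.26, 6.61 and 6.52 in controls. Control array 2 lay just below double knockout array 2, and the difference was 1.61-fold (log2 0.68, SE 0.185, adjusted p = 0.0247). The call was lost without double knockout array 1 or 3 or control array 3 or 4 (adjusted p = 0.0865, 0.0861, 0.0550 and 0.0517). Its change was 0.355 without background correction and 0.341 in the authors' processed table, and it passed in both (adjusted p = 0.0185 and 0.0194). Other Ddb2 probes were detected on 2, 1 and 0 arrays.

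Ercc5 (XPG), which makes the incision on the downstream side of the lesion, was the only passing gene with a second tested probe, and both probes passed. Its brighter probe read 9.22, 9.40 and 9.16 in the double knockout and 8.80, 8.83, 8.73 and 8.90 in controls, 1.36-fold higher (log2 0.45, SE 0.116, adjusted p = 0.0208). Its other probe read 8.77, 8.92 and 8.85 in the double knockout and 8.30, 8.61, 8.22 and 8.52 in controls, with a log2 change of 0.43 (SE 0.136, adjusted p over probes = 0.0428). Neither probe's groups overlapped. The first call was lost without double knockout array 1 or 2 or control array 3 (adjusted p = 0.0577, 0.0685 and 0.0519), and the second was lost in 6 of the 7 fits that left out an array, with adjusted p up to 0.119.

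Ercc1, which joins Ercc4 (XPF) in the nuclease that cuts on the other side, read 8.21, 8.33 and 8.21 in the double knockout and 8.86, 8.61, 8.98 and 8.71 in controls. The groups did not overlap, and the fall was 1.46-fold (log2 -0.54, SE 0.127, adjusted p = 0.0143). Without double knockout array 1 or 3 the adjusted p was 0.0541 and 0.0589, and with median scaling over all probes the change was 0.13 (adjusted p = 0.668), where the median of all genes was 0.52. Ercc4 differed by -0.27 (95% interval -0.57 to 0.03, adjusted p = 0.162), the smallest p of the genes of this pathway that did not pass, and its dimmer probe differed by 0.28 with a larger SE of 0.322. Ddb1, the adaptor that joins Ddb2 to a ubiquitin ligase, differed by -0.26 (95% interval -0.56 to 0.03, adjusted p = 0.166). Its double knockout arrays, at 9.42 to 9.76, lay below the controls, at 9.76 to 10.03, with the nearest arrays level after rounding. The helicase Ercc3 (XPB) differed by -0.28, Xpa, which checks the opened lesion, by -0.13, and the sensor Xpc by 0.12 (adjusted p = 0.193, 0.544 and 0.654). The helicase Ercc2 (XPD) was detected on 1 array, and Ercc6, which acts where transcription stalls, matched no probe.

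In end joining, Nhej1 had the largest change of all 32 genes. Nhej1 (XLF), which bridges broken ends together with Xrcc4, read 6.37, 6.57 and 5.76 in the double knockout and 7.74, 7.32, 7.90 and 7.26 in controls. Every double knockout array lay below every control array, and the fall was 2.50-fold (log2 -1.32, SE 0.225, adjusted p = 0.00403). It ranked 125 of 7547 genes by size of change, and it passed whichever array was left out (log2 -1.49 to -1.08, adjusted p 0.00684 to 0.0165). The size was smaller with background left in, at -0.63, and in the authors' processed table, at -0.62.

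Its partners did not pass. Xrcc4 differed by 0.35 (95% interval -0.02 to 0.71, adjusted p = 0.141), with 6.77, 6.89 and 6.60 in the double knockout and 6.09, 6.29, 6.67 and 6.59 in controls, which overlapped. The ligase Lig4 differed by -0.28 (adjusted p = 0.447) on a dim probe. Xrcc6, the smaller Ku subunit that binds broken ends first, differed by -0.02 (95% interval -0.28 to 0.25, adjusted p = 0.929), the narrowest interval of this group, while another of its probes differed by 0.28 with groups that did not overlap (unadjusted p = 0.0477, adjusted p over probes = 0.123). Prkdc, the kinase recruited by Ku, differed by 0.34 (adjusted p = 0.152) and was detected on 3 of 3 double knockout and 1 of 4 control arrays. With undetected values at the detection floor its difference was 0.04. The larger Ku subunit Xrcc5 was not above background on any array, and Dclre1c (Artemis), which opens hairpin ends, matched no probe. Mgmt, which directly reverses alkylated guanine, differed by -0.07 (95% interval -0.47 to 0.34).

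Proteins that work as partners were next compared by the difference of their changes on the same array, which median scaling leaves nearly as it was. These 7 comparisons were chosen after the values were seen, so they are given without a test. Relative to the control mean, Nhej1 minus Xrcc4 was -1.55, -1.47 and -1.98 on the double knockout arrays and 0.50, -0.11, 0.09 and -0.47 on the controls. Ddb2 minus Ddb1 was 1.26, 0.69 and 0.89 in the double knockout, against -0.28 to 0.31 in controls. Lig3 minus Xrcc1 was 0.91, 0.46 and 0.91 in the double knockout, against -0.42 to 0.16 in controls. Without background correction Nhej1 minus Xrcc4 averaged -0.78, against -1.67 with it, and Ddb2 minus Ddb1 averaged 0.585, against 0.95. Lig3 minus Xrcc1 was 0.38 with the brightness covariate, against 0.76. As normalized, these 3 differences separated the groups by more than the control SD of each, which was 0.405, 0.272 and 0.280.

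Smug1 minus Ung, the uracil glycosylases, was 0.34, 0.39 and 0.42 in the double knockout and -0.30 to 0.13 in controls. That difference was 0.08 without background correction and 0.71 with the mean of each gene's probes, against 0.38. Ercc1 minus Ercc4 was -0.26, -0.15 and -0.41 in the double knockout and -0.15 to 0.30 in controls, where the nearest arrays were level after rounding. For Msh3 minus Msh6 and Polb minus Xrcc1 the groups overlapped, with means of -0.78 ± 0.279 and -0.60 ± 0.280 (SD, n = 3) in the double knockout, where control array 2 reached -0.48 and -0.66. Msh3 minus Msh6 was -0.26 without background correction, Polb minus Xrcc1 was -0.40, and Ercc1 minus Ercc4 was -0.55 with the mean of each gene's probes, against -0.27.

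Other genes of the same pathways moved about as often. Of 45 further excision, mismatch and end-joining genes, 35 had a probe and 26 were tested, and 2 were higher and 5 lower, or 26.9%. The ubiquitin ligase scaffolds Cul4b and Cul4a, alternative cores of the ligase that Ddb1 joins, went in opposite directions. Cul4b read 8.36, 8.83 and 8.44 in the double knockout and 9.44, 9.32, 9.46 and 9.47 in controls (log2 -0.88, SE 0.138, adjusted p = 0.00297), and Cul4a read 11.23, 10.81 and 11.11 in the double knockout and 10.41, 10.68, 10.63 and 10.65 in controls (log2 0.46, SE 0.139, adjusted p = 0.0370). In both cases the groups were separate. Alkbh2, which directly reverses alkylated bases, was at -0.92 (adjusted p = 0.0205) with groups that overlapped, and the end-joining polymerase Poll at -0.58 (adjusted p = 0.0158). Of the TFIIH subunits, Gtf2h1 rose by 0.41, while Gtf2h4 and Mnat1 were at -0.46 and -0.51 (adjusted p = 0.0322, 0.0341 and 0.0383). With median scaling over all probes 6 of the 26 were higher and 0 lower, against 3768 and 116 over all genes. With median scaling over detected probes 0 were higher and 10 lower, against 781 and 1781 over all genes. The number of these genes that passed was 1 without double knockout array 1 (3.85%, against 15.6% of all genes). It was 1 without double knockout array 3 (3.85%, against 14.8%). It was 4 without control array 1 (15.4%, against 24.5%) and 3 without control array 3 (11.5%, against 20.4%).

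Promoters of the changed genes are shown because Nhej1 had the largest fall, and Nthl1, Smug1 and Lig3 moved in different directions within base excision repair. The sequences are from RefSeq on GRCm38.p6, 250 bases before to 50 bases after the gene start, and 34 of the 39 genes had an entry; Ddb2, Ercc3, Polb, Prkdc and Xpc did not. Capitals mark matches on either strand to the GC box (GGGCGG), the ETS motif (CCGGAAG), E2F motifs (TTTCCCGC, TTTCGCGC, TTTGCCGC or TTTGGCGC) and the ZNF143-type motif, and no marked matches overlap.
Nhej1, chr1:75125177-75125476, minus strand: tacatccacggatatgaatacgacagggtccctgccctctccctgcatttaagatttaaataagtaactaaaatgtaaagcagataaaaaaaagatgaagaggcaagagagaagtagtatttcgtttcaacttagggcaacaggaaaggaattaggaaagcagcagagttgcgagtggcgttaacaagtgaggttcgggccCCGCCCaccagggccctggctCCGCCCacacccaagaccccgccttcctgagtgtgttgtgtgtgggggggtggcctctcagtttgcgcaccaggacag
Nthl1, chr17:24632432-24632731, plus strand: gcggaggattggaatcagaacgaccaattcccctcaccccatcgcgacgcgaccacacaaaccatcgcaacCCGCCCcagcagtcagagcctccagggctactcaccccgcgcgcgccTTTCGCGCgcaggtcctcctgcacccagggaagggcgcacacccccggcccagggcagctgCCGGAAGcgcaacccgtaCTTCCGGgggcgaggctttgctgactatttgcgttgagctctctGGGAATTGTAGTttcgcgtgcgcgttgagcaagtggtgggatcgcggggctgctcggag
Smug1, chr15:103163235-103163534, minus strand: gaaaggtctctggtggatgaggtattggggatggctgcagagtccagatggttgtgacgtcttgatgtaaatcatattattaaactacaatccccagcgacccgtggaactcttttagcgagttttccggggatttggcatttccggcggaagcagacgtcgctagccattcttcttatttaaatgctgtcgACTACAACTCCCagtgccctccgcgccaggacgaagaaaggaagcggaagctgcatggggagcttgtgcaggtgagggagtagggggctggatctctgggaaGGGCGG
Lig3, chr11:82780859-82781158, plus strand: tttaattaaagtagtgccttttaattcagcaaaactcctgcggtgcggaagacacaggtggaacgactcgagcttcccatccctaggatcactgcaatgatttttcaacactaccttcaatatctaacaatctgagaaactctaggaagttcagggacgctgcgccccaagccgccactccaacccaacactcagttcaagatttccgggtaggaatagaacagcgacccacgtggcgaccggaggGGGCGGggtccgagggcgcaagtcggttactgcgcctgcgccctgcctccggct

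The GC box was in the promoters of 25 of the 34 genes, or 73.5%, against 38.2% of all 27025 genes with an entry, a gene counting where any of its entries matched. The 34 genes had 40 entries, and the 27025 genes had 32851. The 27025 genes were not limited to those tested here, so these shares are not matched for expression. The ETS motif was in 9 of the 34, against 9.93%, and E2F motifs were in 4, against 2.60%. The CCAAT box, not marked above, was in 19 of the 34, or 55.9%, against 41.1%. The ZNF143-type motif was in 2 of the 34, Nthl1 and Smug1, against 1.10% of all genes, and these genes changed in opposite directions. The core of the interferon-stimulated response element was in 1 of the 34, against 3.99%, and the p53 half-site in 2, against 9.55%, with no match to either in the 7 changed genes that had an entry. These are matches of letters in a window and say nothing of binding.

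The changed genes differed in how firmly their values held across processing settings. Over 17 other settings, Nhej1 and Smug1 each lost the threshold in 1, where brightness was a covariate, and Nthl1 in that setting and with median scaling over all probes. Msh3 kept the threshold in 7 of the 16 settings that tested it, Ddb2 in 11 of 17, Polb, Ercc1 and Ercc5 in 12 each, and Lig3 in 13. Without double knockout array 1, 3 of the 32 genes passed (9.38%, against 15.6% of all genes), and without double knockout array 3, 5 passed (15.6%, against 14.8%). With median scaling over all probes 14 were higher and 1 lower, while over all genes 3768 were higher and 116 lower and the median change was 0.52. In that setting the 4 genes reported as higher were at 1.11 to 1.29 and the 5 reported as lower at -0.72 to 0.13, on either side of that median. With median scaling over detected probes 4 were higher and 7 lower, against 781 and 1781 over all genes. Rises and falls are given as measured under quantile normalization, where the median of all genes was 0.01.

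**Figure D4:**
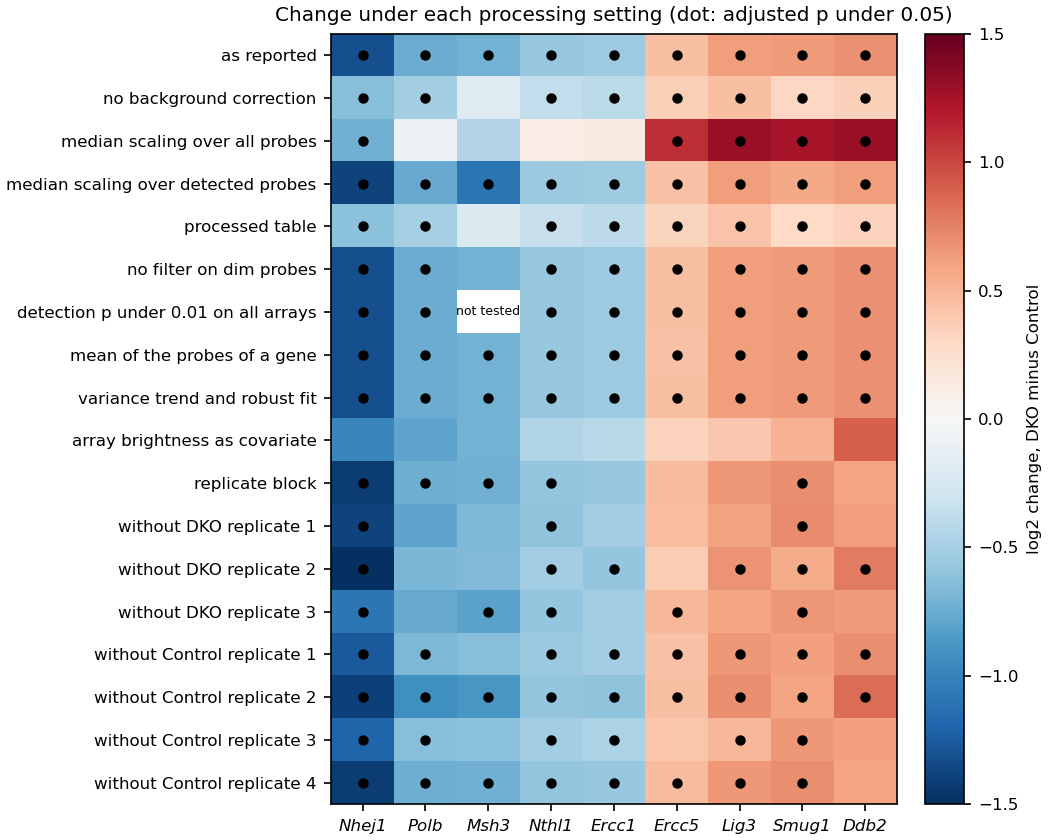
log2 change (double knockout minus control, colour scale) of the 9 passing repair genes under the reported setting and 17 other settings, with a dot where the adjusted p was under 0.05. Nhej1, Smug1 and Nthl1 hold dots in nearly all rows, the row with array brightness as a covariate holds none, and Msh3 was not tested under the strictest detection filter.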

How the data were processed

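RNA of sorted megakaryocyte-erythroid progenitors was amplified to biotinylated cRNA and hybridised to MouseRef-8 v2.0 BeadArrays in a single colour, per the labels. GenomeStudio was used, per the submitters' processing notes, with version and settings not given in the sources used here. The authors deposited probe signals as an intensity on a linear scale, not normalized between arrays, each with a detection p-value. A processed table of log2 values was deposited as well. Set against quantile-normalized log2 signals, its group differences correlated at 0.999 across probes. The slope of its centred values on the centred signals was 0.957. Direction and scale of the processed table are therefore those of the signals. Its changes lay close to those without background correction, such as -0.616 and -0.634 for Nhej1 and 0.341 and 0.355 for Ddb2. These settings are therefore not independent checks. Its column medians were 0.00214, 0.00283 and 0.00164 for the double knockout and 0.00211, 0.00419, 0.00387 and 0.00513 for controls, and the baseline of its centring remains unknown.

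Signals were normalized with neqc in limma 3.58.1 (R 4.3.3), which estimates background from detection p-values, adds an offset of 16 and quantile-normalizes. Of 25697 probes, 23978 had 1 gene symbol, 0 had several and 1719 had none. Genes were named through GRCm38.p6 gene IDs. Groups were compared with lmFit and eBayes, two-sided. The members and lists were chosen with earlier results of these data known. All 39 members are accounted for: passing genes with every array's value, other tested genes with their change, and the 95% interval for the smallest p or narrowest interval of a role. Passing genes of the further pathway list are named, up to 8. Floor-raised values set undetected arrays to the lowest value among that array's detected probes. The procedure was tested on simulated data. Precision is limited by the number of arrays.

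Alternatives were background correction, scaling, the processed table, detection filters, probe averaging, the variance model, array brightness, a replicate block and leaving out each array without renormalizing the rest. The replicate block used only arrays whose number occurs in both groups. The control array without a same-numbered double knockout array was therefore left out of that fit.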

Additional observations from a re-analysis of the deposited data

Results flagged for a closer look

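Among the 4 control arrays, Xpa stood out on control array 4, which read 8.57 against 9.01 to 9.08 on the other controls, with the double knockout arrays at 8.72 to 8.85. The gap took up 0.848 of the control range, above the 95% critical value of Dixon's test for 4 arrays. It was 1 of 32 genes tested in this way, and chance flags about 1 in 20 groups. Without control array 4 the difference of Xpa was -0.25 (adjusted p = 0.150).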

How the results depend on the processing

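Of the 32 repair genes, 15 passed with median scaling over all probes, 0 with the brightness covariate (3 at an unadjusted p under 0.05 in limma) and 5 with the replicate block, against 9, and 3 to 9 when an array was left out. Over all genes these counts were 3884, 52 and 1355, against 2051, and 1116 to 1923 without an array. The further pathway genes counted 0 with the brightness covariate (2 at an unadjusted p under 0.05 in limma) and 3 with the replicate block, against 7, and 1 to 7 without an array. Of 13 other detected probes of the members 2 passed, where 26.0% of all 10091 detected probes passed. The count was 5 with median scaling over all probes, 1 with a variance trend and robust fit and 1 with the replicate block. It was 0 with the brightness covariate (0 at an unadjusted p under 0.05 in limma) and 0 to 2 without an array. The share over all probes is not given for these settings. Of all genes tested, 51.5%, 30.9%, 18% and 0.689% passed in these 4 settings, in the order given, and 14.8% to 25.5% without an array. These probe counts are therefore not read as particular to the members. The median change of the members was 0.493 and -0.173 with median scaling over all and over detected probes, where that of all genes was 0.522 and -0.144. It was -0.0111 with no filter on dim probes and -0.0911 to -0.0104 without an array. With median scaling over all probes the changes of Nthl1 and Ercc1 turned to 0.115 and 0.129, both below the all-gene median in that setting. Mbd4, Mgmt and Xpa, not called before, also turned and passed at 0.564, 0.606 and 0.532, close to that median. Another 7 members not called before passed there in their former direction. The sign of uncalled members turned in 11 cases in that setting. The cause of these shifts was not tested. Deviations of same-numbered arrays from their group means were little correlated over genes (-0.169, -0.016 and 0.0277). With so few arrays per group, these values cannot decide whether the numbers pair samples, and the sources used here do not say. Probes near background, such as those of Msh3, Ogg1, Mutyh, Lig4 and Prkdc and the dimmer Ung probe, limit what can be said of these genes.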
